A study of Homo sapiens with 10 samples.

Results

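The HOXC cluster is the group of homeobox genes on chromosome 12 that runs from HOXC4 to HOXC13. It was followed here in SW620, an established human colon cancer line, and in derivatives of it selected in nude mice. All 9 genes of the cluster were measured. They were found as the 33 rows of the expression table for which the array annotation lists a single symbol and that symbol is a HOXC gene, out of 56949 rows with a listed gene. A further 2 rows list HOXC4, HOXC5 and HOXC6 together and are described apart. Each row is taken as a set of probes for part of a gene, and HOXC6 has 7 rows, HOXC13 has 6, HOXC4 and HOXC10 have 4 each, HOXC8 and HOXC9 have 3 each, and HOXC5, HOXC11 and HOXC12 have 2 each.

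The samples were 3 arrays of lung metastasis derivatives, 3 arrays of liver metastasis derivatives and 4 arrays of parental SW620 cells. For the derivatives, metastases that formed in balb/c nude mice were taken out and the cells were grown in culture before RNA was extracted. All cells were kept in DMEM with fetal bovine serum, glutamine, penicillin and streptomycin. The labels also give the strain balb/c for the parental cells, and call the replicates biological without saying whether those of a derivative came from separate mice or metastases, and p-values therefore reflect the spread among these arrays alone, which may be technical. The comparisons ask how the lung and the liver derivatives differed from the parental line and from each other.

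HOX genes encode transcription factors that bind DNA through a homeodomain and give cells along the body axis their regional identity. Genes at one end of a cluster act in anterior regions and those at the other end in posterior regions, and adult tissues, including fibroblasts and gut, keep a HOX pattern that reflects where they lie. HOX proteins bind DNA together with PBX and MEIS partners, and Polycomb and Trithorax complexes keep the clusters silent or active. In the RefSeq gene table of GRCh38.p14 the 9 genes lie in one order, with HOXC4, HOXC5 and HOXC6 at one end and HOXC13 at the other.

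The entries of HOXC4, HOXC5 and HOXC6 in that table begin at the same base, and the RefSeq promoter table holds an entry for 2 of the 9 members, HOXC4 and HOXC5, with the same sequence. It is shown because HOXC4 and HOXC5, the genes called between lung and liver derivatives, share it. The 300 bases run from 250 before to 50 after the shared start (GRCh38.p14, chr12:54016638-54016937, plus strand), with each match to TTTAT or its reverse complement ATAAA, a core that caudal-type and posterior HOX homeodomains bind, in capitals.
HOXC4 and HOXC5 promoter: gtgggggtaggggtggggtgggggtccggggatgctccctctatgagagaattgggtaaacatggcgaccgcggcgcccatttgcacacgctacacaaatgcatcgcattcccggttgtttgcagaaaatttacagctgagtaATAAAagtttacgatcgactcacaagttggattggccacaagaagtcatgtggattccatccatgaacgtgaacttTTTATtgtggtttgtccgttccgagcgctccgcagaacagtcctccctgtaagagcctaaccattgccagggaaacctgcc

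This promoter held 2 matches to TTTAT on either strand, and 14.4% of the 35116 promoters of this length in the table held at least as many and 34.9% held at least 1. The general homeodomain core TAAT, searched with its reverse complement ATTA, occurred 1 time, overlapping an ATAAA match, and 50.2% of all promoters held it. A match of letters is a description and not a binding site.

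Parental array 4 stood apart from the other arrays of its group. Over all tested rows it correlated at 0.965 to 0.968 with parental arrays 1 to 3, which correlated at 0.986 to 0.988 among themselves, and its correlation with the lung arrays was 0.963 to 0.964, where parental arrays 1 to 3 had 0.940 to 0.957. The labels give no batch. The HOXC lung comparisons are therefore also given from a fit with a term for array set, parental array 4 and the lung arrays being one set and the other 6 arrays the other. That fit sets lung derivatives against parental array 4 alone and liver derivatives against parental arrays 1 to 3. Its lung over liver value is the first of these changes minus the second. That value is no direct comparison of lung with liver arrays, and it too rests on parental array 4. The keratins KRT8 and KRT18, which mark simple epithelium, were measured in every group, KRT8 at 12.82 ± 0.10 in lung derivatives, 12.77 ± 0.06 in liver derivatives and 12.75 ± 0.04 log2 units in parental cells (SD, n = 3, 3 and 4). The number of arrays limits the precision of all values.

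Taking each gene as the mean of its rows, 1 HOXC gene was called in liver derivatives against parental cells, 2 were called in lung derivatives against parental cells and 2 between lung and liver derivatives. A call is a limma adjusted p under 0.05, with the adjustment over all 4713 genes or, for rows, over all 56949 rows. HOXC5 was higher in liver derivatives. HOXC8 was higher and HOXC11 lower in lung derivatives, and HOXC4 and HOXC5 were both lower in lung than in liver derivatives. Given a term for array set, the limma counts were 1 for liver over parental (HOXC5), 0 for lung over parental (2 at an unadjusted p under 0.05) and 0 for lung over liver (0 at an unadjusted p under 0.05), against 8.95%, 5.75% and 0.0849% of all genes. Without parental array 4 they were 1, 4 and 2, against 8.95%, 41.4% and 32.3%. Because RNA came from whole cultures, fewer cells with a gene's RNA and less RNA per cell cannot be told apart.

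With 9 genes, 1 call is 11.1%, and the HOXC counts were within 1 gene of the share over all genes. In the liver comparison 11.1% of the HOXC genes were called, against 7.83% of all genes, of which 4.33% were higher and 3.5% lower. For lung over parental it was 22.2% against 30.1% of all genes, 12.9% higher and 17.3% lower. The HOXC calls in that comparison, 1 higher and 1 lower, became 2 higher and 0 lower after quantile normalization and after median centring. For lung over liver it was 22.2% against 19.9%, 8.02% higher and 11.9% lower. The median log2 change over the 9 genes was 0.09 for liver over parental, -0.11 for lung over parental and 0.04 for lung over liver, against medians of 0.01, -0.01 and -0.02 over all genes.

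**Figure D1:**
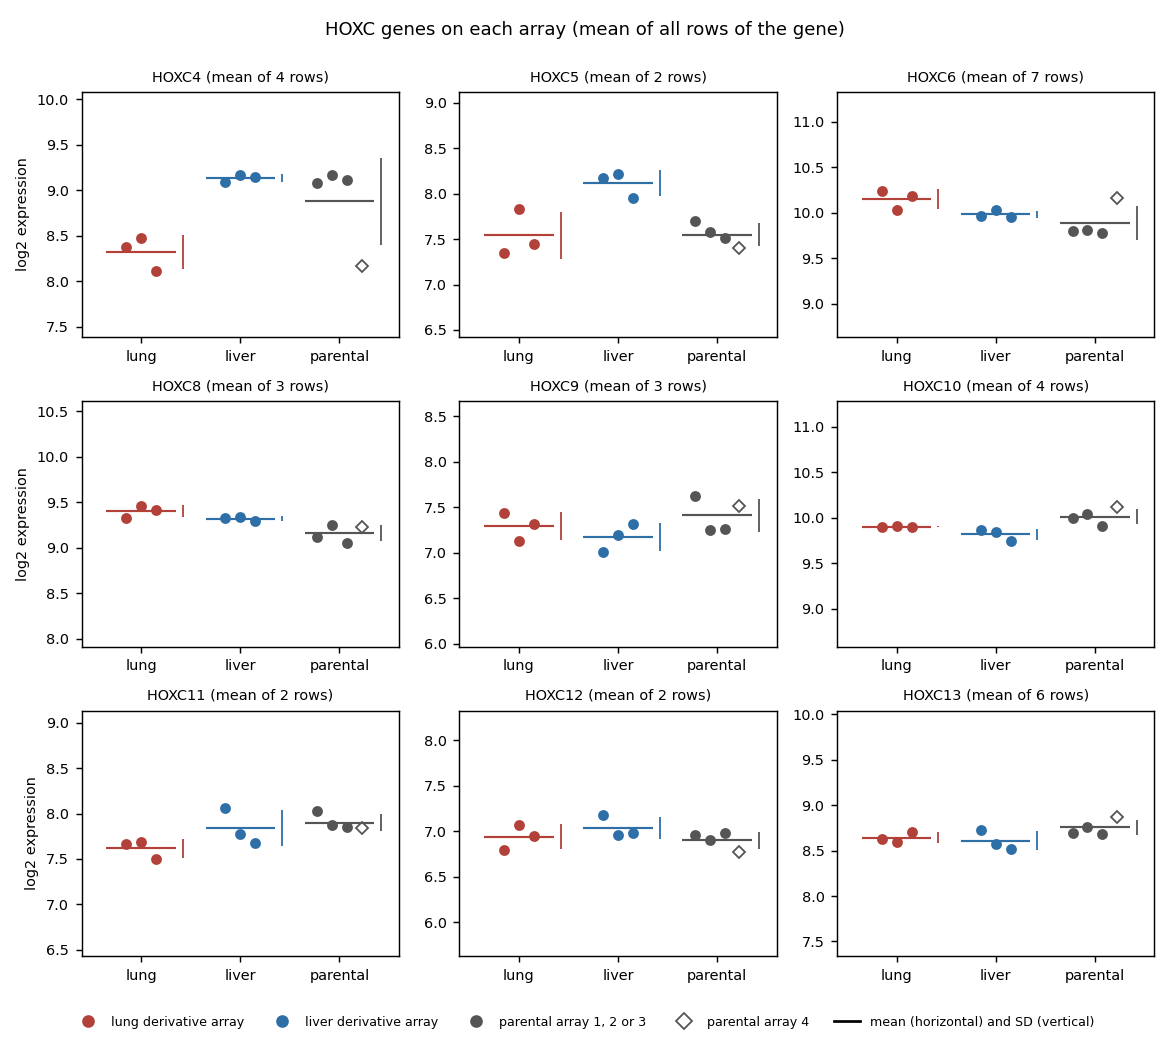
Log2 expression of the 9 HOXC genes on each array, as the mean of the rows of each gene, for lung derivatives, liver derivatives and parental cells. Points are arrays, the open diamond is parental array 4, horizontal lines are group means and vertical lines are SDs; all panels span the same number of log2 units. Liver arrays of HOXC5 lie between 7.95 and 8.22, above all parental arrays, and parental array 4 of HOXC4 lies at 8.17 among the lung arrays.

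HOXC4, at the anterior end of the cluster, was low in the lung arrays and in 1 parental array. Its mean over 4 rows was 8.37, 8.47 and 8.11 in lung arrays 1 to 3 and 9.09, 9.17 and 9.15 in liver arrays 1 to 3, against 9.08, 9.16, 9.11 and 8.17 in parental arrays 1 to 4. All 3 lung arrays lay below all 3 liver arrays and below parental arrays 1 to 3, while parental array 4 lay among the lung arrays. HOXC4 was 1.76-fold lower in lung than in liver derivatives (log2 change -0.82, SE 0.22, limma adjusted p = 0.0282). Its direction turned with a term for array set, to 0.14 (adjusted p = 0.792). Without liver array 1, 2 or 3 or lung array 1 or 3 the difference lost its call, with values from -0.84 to -0.71 and adjusted p from 0.0685 to 0.0883.

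Against parental cells HOXC4 changed by -0.56 in lung derivatives (SE 0.21, limma adjusted p = 0.0603), which was not called. Without parental array 4 the change was -0.80 (adjusted p = 0.000144), and against parental array 4 alone it was 0.15 (adjusted p = 0.471). In liver derivatives the change was 0.26 (SE 0.21, adjusted p = 0.598), and 0.02 without parental array 4.

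The 4 HOXC4 rows had the same direction. Their changes for lung over liver ran from -1.36 to -0.52 and those for lung over parental from -1.03 to -0.26. Against parental array 4 alone all 4 turned, to between 0.07 and 0.36. In row 7955884, the HOXC4 row that was called, the lung arrays had 8.51, 8.70 and 8.33 and the liver arrays 9.70, 9.92 and 10.01, against 9.85, 9.98, 9.91 and 8.41 in the parental arrays. This row was 2.57-fold lower in lung than in liver derivatives (-1.36, SE 0.37, limma adjusted p = 0.0438), and with a term for array set the difference was 0.14. For lung over parental it changed by -1.03 (adjusted p = 0.0786), and by -1.40 without parental array 4 (adjusted p = 0.000516). The call between lung and liver was lost without any 1 of 9 arrays, all but parental array 4, with adjusted p from 0.0549 to 0.122.

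HOXC5, the neighbour of HOXC4, was higher in the liver derivatives than in both other groups. Its mean over 2 rows was 7.34, 7.84 and 7.45 in the lung arrays and 8.18, 8.22 and 7.95 in the liver arrays, against 7.70, 7.58, 7.52 and 7.40 in the parental arrays. Every liver array lay above every lung and every parental array, and here parental array 4 was the lowest of its group. Liver derivatives had 1.48-fold more HOXC5 than parental cells (log2 change 0.56, SE 0.12, limma adjusted p = 0.0126; 8.11 ± 0.14 against 7.55 ± 0.13, SD, n = 3 and 4). Against parental arrays 1 to 3 the change was 0.51 (adjusted p = 0.0281). Without liver array 1 or liver array 2 it was 0.53 and 0.51 with adjusted p of 0.067 and 0.0715, and by the brightest HOXC5 row alone it was 0.36 (adjusted p = 0.276).

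In lung derivatives HOXC5 changed by -0.01 against parental cells (SE 0.12, limma adjusted p = 0.97). It was 1.49-fold lower in lung than in liver derivatives (-0.57, SE 0.13, adjusted p = 0.017). The array set term brought the difference to -0.37 (adjusted p = 0.605). Without liver array 1, liver array 2 or lung array 1 the call was lost, with values from -0.54 to -0.47 and adjusted p from 0.0534 to 0.0731.

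Both HOXC5 rows lay in the same direction in liver derivatives, and neither was called by itself against parental cells. Row 7955888 had 6.89, 7.39 and 7.01 in the lung arrays and 7.95, 7.92 and 7.70 in the liver arrays, against 7.22, 7.24, 7.19 and 6.72 in the parental arrays. Its change was 0.77 for liver over parental (SE 0.17, limma adjusted p = 0.0544, or 0.0415 without lung array 2) and -0.76 for lung over liver (SE 0.18, adjusted p = 0.0322), where it was called. The lung over liver difference was -0.26 with a term for array set, and its call was lost without any 1 of liver arrays 1, 2 and 3 and lung arrays 1 and 3 (adjusted p from 0.0701 to 0.105). Row 7955889 changed by 0.36 for liver over parental (adjusted p = 0.354) and by -0.39 for lung over liver (adjusted p = 0.122).

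HOXC6, the third gene of the shared start and a gene raised in several carcinomas, had no call in the 3 comparisons when its 7 rows were averaged. It was at 10.23, 10.03 and 10.18 in the lung arrays and at 9.96, 10.03 and 9.95 in the liver arrays, against 9.80, 9.81, 9.78 and 10.16 in the parental arrays. Parental array 4 again lay among the lung arrays, on the high side this time. The change in lung derivatives was 0.26 (SE 0.10, limma adjusted p = 0.061), 0.35 without parental array 4 (adjusted p = 0.00222), 0.32 without lung array 2 (adjusted p = 0.0477) and -0.01 against parental array 4 alone.

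Of the HOXC6 rows, row 7955878 was called. Its values were 10.80, 10.53 and 10.64 in the lung arrays and 9.83, 9.81 and 9.65 in the liver arrays, against 9.52, 9.64, 9.84 and 10.56 in the parental arrays. It was 1.86-fold higher in lung than in liver derivatives (0.89, SE 0.24, limma adjusted p = 0.0422), and the array set term left a difference of 0.00283. The other 6 HOXC6 rows changed by -0.19 to 0.25 in this comparison and were not called. Without any 1 of 8 arrays, all but parental arrays 1 and 4, the call of row 7955878 was lost (adjusted p from 0.0561 to 0.122). For lung over parental the row changed by 0.77 (adjusted p = 0.0521), and by 0.99 without parental array 4 (adjusted p = 0.00138). In liver derivatives rows 7955879 and 7955880 changed by 0.32 and 0.29 against parental cells, with adjusted p of 0.141 and 0.213. The first of these, at 10.09, 10.10 and 10.10 in the liver arrays against 9.72, 9.69, 9.76 and 9.93 in the parental arrays, was called at 0.37 without parental array 4 (adjusted p = 0.0393).

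The 2 rows that list HOXC4, HOXC5 and HOXC6 together were not called in any comparison. Row 7955874 had 7.46, 7.66 and 7.44 in the lung arrays and 7.38, 7.19 and 7.44 in the liver arrays, against 7.02, 7.27, 7.29 and 7.45 in the parental arrays. Row 7955875 changed by 0.58 for lung over parental (limma adjusted p = 0.249) and by -0.17 for liver over parental (adjusted p = 0.895). In both rows the parental arrays overlapped with each derivative, while every lung array lay above every liver array. For lung over parental these rows, at 0.27 and 0.58, lay on the side of HOXC6 and not of HOXC4, without a call. Against parental array 4 alone their changes were 0.077 and -0.0054, so this likeness rests on the other parental arrays.

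**Figure D2:**
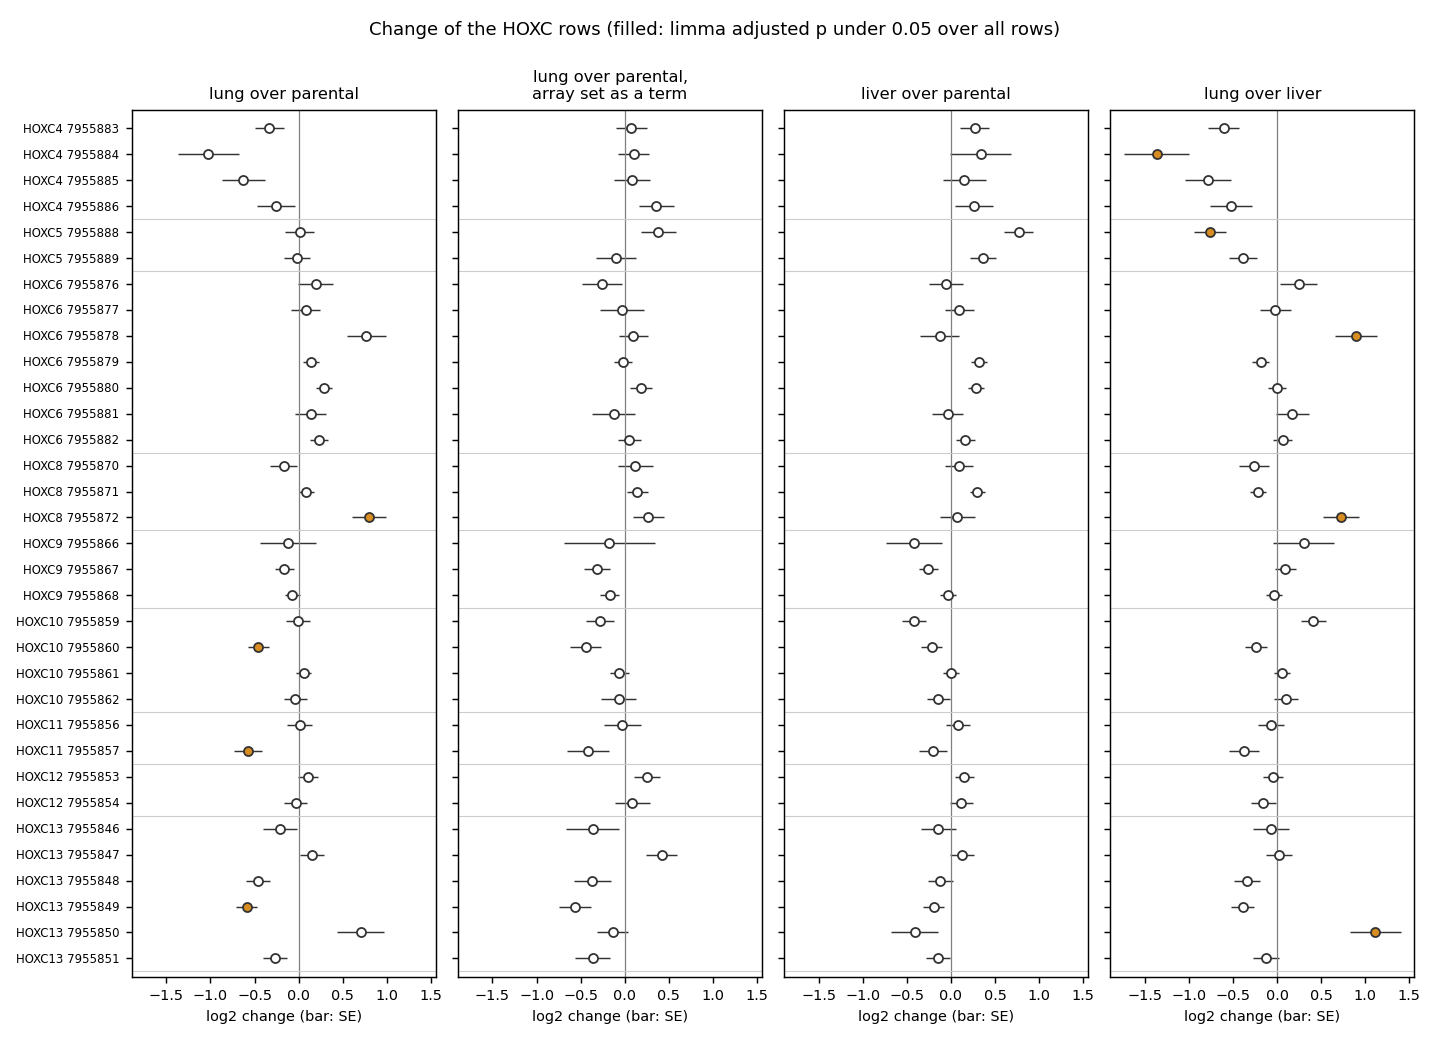
Log2 change with its standard error for the 33 HOXC rows, ordered from HOXC4 to HOXC13, for lung over parental, the same with a term for array set, liver over parental and lung over liver. Filled points are rows with a limma adjusted p under 0.05. There are 4 filled rows for lung over parental, 0 with a term for array set, 0 for liver over parental and 5 for lung over liver.

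By single rows, 4 of the 33 were called for lung over parental, 1 higher and 3 lower, which is 12.1% against 13.1% of all rows, 5.15% higher and 7.99% lower. After quantile normalization the 4 called rows were 3 higher and 1 lower, and after median centring 2 higher and 2 lower. For lung over liver 5 were called, 3 higher and 2 lower, which is 15.2% against 12.6% of all rows, 5.02% higher and 7.61% lower. For liver over parental limma called 0, against 2.2% of all rows, 1.15% higher and 1.04% lower, while 7 had an unadjusted p under 0.05. Adding the array set term gave limma counts of 0 for lung over parental (3 at an unadjusted p under 0.05), 0 for lung over liver (1) and 1 for liver over parental, against 1.12%, 0.0632% and 2.57% of all rows. Without parental array 4 the counts were 13, 9 and 1, against 28.5%, 24.9% and 2.57% of all rows.

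HOXC8, which patterns the thoracic skeleton in mice, was higher in lung derivatives when its 3 rows were averaged. It was at 9.33, 9.46 and 9.42 in the lung arrays and 9.33, 9.34 and 9.29 in the liver arrays, against 9.12, 9.25, 9.06 and 9.23 in the parental arrays. All lung and liver arrays lay above all parental arrays, parental array 4 included. The change was 0.24 in lung derivatives (SE 0.07, limma adjusted p = 0.0204; 9.40 ± 0.06 against 9.16 ± 0.09, SD, n = 3 and 4) and 0.16 in liver derivatives (SE 0.07, adjusted p = 0.225). Against parental array 4 alone the lung change was 0.18 (adjusted p = 0.271). Without parental array 1 or lung array 2 or 3 it was 0.21 to 0.23 (adjusted p from 0.0527 to 0.0609). With only the lung and parental arrays fitted it was 0.24 and not called (limma adjusted p = 0.054). With the median of its rows in place of the mean it was 0.09 (adjusted p = 0.431).

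Of the 3 HOXC8 rows, row 7955872 was called. It had 11.08, 10.87 and 11.09 in the lung arrays and 10.16, 10.43 and 10.28 in the liver arrays, against 9.96, 10.23, 9.91 and 10.75 in the parental arrays. All lung arrays were above all others, with parental array 4 next below them. The row was 1.74-fold higher in lung derivatives than in parental cells (0.80, SE 0.19, limma adjusted p = 0.0304) and 0.72 higher than in liver derivatives (SE 0.21, adjusted p = 0.04997), and with a term for array set these values were 0.27 and 0.01. The first call was lost without any 1 of parental arrays 1, 2 and 3 or lung arrays 1, 2 and 3 (adjusted p from 0.0526 to 0.0825), and the second without any 1 array other than parental array 4 (adjusted p from 0.0553 to 0.135). With only the lung and parental arrays fitted, the first call was lost too (limma adjusted p = 0.0787). The other 2 HOXC8 rows, 7955870 and 7955871, changed by -0.17 and 0.09 for lung over parental.

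HOXC9, HOXC10 and HOXC11 belong to the middle and posterior part of the cluster. In mice HOXC9 sets thoracic and HOXC10 lumbar motor neuron identity. HOXC9 was at 7.43, 7.13 and 7.32 in the lung arrays and 7.01, 7.20 and 7.31 in the liver arrays, against 7.62, 7.25, 7.26 and 7.51 in the parental arrays. The groups overlapped and no HOXC9 row was called. HOXC9 had 2 of its 3 rows below the 25th percentile of all rows, so that most of its rows were dim.

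HOXC10 was not called. Its mean over 4 rows was 9.89, 9.91 and 9.90 in the lung arrays and 9.86, 9.85 and 9.75 in the liver arrays, against 9.99, 10.04, 9.91 and 10.12 in the parental arrays. All liver arrays lay below all parental arrays. The changes were -0.11 in lung derivatives (SE 0.06, limma adjusted p = 0.202) and -0.19 in liver derivatives (SE 0.06, adjusted p = 0.109). Its row 7955860 fell in lung derivatives, with 9.03, 9.22 and 8.92 against 9.38, 9.68, 9.48 and 9.49 in the parental arrays (-0.46, SE 0.12, adjusted p = 0.0365). This change was -0.44 against parental array 4 alone (adjusted p = 0.278). Without parental array 1, 2 or 3, liver array 1 or 2 or lung array 1 or 3 it was not called (-0.50 to -0.39, adjusted p from 0.0553 to 0.0957). Nor was it called after quantile normalization (-0.39, limma adjusted p = 0.0621) or with only the lung and parental arrays fitted (limma adjusted p = 0.0847).

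HOXC11, which is known to bind the promoter of the intestinal lactase gene, was lower in lung derivatives. It was at 7.66, 7.69 and 7.50 in the lung arrays and 8.06, 7.78 and 7.68 in the liver arrays, against 8.03, 7.87, 7.86 and 7.84 in the parental arrays. All lung arrays lay below all parental arrays. The change was -0.28 (SE 0.09, limma adjusted p = 0.0439; 7.62 ± 0.10 against 7.90 ± 0.09, SD, n = 3 and 4), and -0.22 against parental array 4 alone (adjusted p = 0.365). The call was lost without parental array 1, 2 or 3, liver array 2 or lung array 1, 2 or 3 (-0.32 to -0.22, adjusted p from 0.0533 to 0.142), and after quantile normalization (-0.27, adjusted p = 0.0536) or median centring (-0.24, adjusted p = 0.0815).

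Of the 2 HOXC11 rows, row 7955857 carried the change. It had 7.66, 8.02 and 7.82 in the lung arrays and 8.51, 8.0 and 8.12 in the liver arrays, against 8.66, 8.43, 8.30 and 8.25 in the parental arrays. Its change was -0.58 for lung over parental (SE 0.16, limma adjusted p = 0.044) and -0.42 against parental array 4 alone (adjusted p = 0.429). Without any 1 of 8 arrays, all but parental array 4 and liver array 1, the call was lost (-0.67 to -0.49, adjusted p from 0.0544 to 0.126). The call was also lost after quantile normalization, after median centring and with only the lung and parental arrays fitted (limma adjusted p = 0.0504, 0.0537 and 0.0728). Row 7955856 changed by 0.01 in the same comparison.

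HOXC12, which had 1 of its 2 rows below the 25th percentile, showed no call. It was at 6.80, 7.07 and 6.95 in the lung arrays and 7.18, 6.96 and 6.98 in the liver arrays, against 6.96, 6.90, 6.98 and 6.77 in the parental arrays. The groups overlapped throughout, and the 3 comparisons gave changes of -0.10 to 0.14.

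HOXC13, the posterior end of the cluster and a regulator of hair and nail keratins, had no call when its 6 rows were averaged. It was at 8.63, 8.59 and 8.71 in the lung arrays and 8.72, 8.58 and 8.52 in the liver arrays, against 8.70, 8.76, 8.68 and 8.87 in the parental arrays. Its rows did not share a direction, with changes from -0.59 to 0.70 for lung over parental. Row 7955849 fell, with 8.81, 9.18 and 8.85 in the lung arrays and 9.28, 9.34 and 9.39 in the liver arrays, against 9.50, 9.70, 9.41 and 9.51 in the parental arrays (lung over parental -0.59, SE 0.12, limma adjusted p = 0.0179). Every lung array was below every other array. It was -0.57 against parental array 4 alone, with 1 array on the parental side. Without parental array 2 or lung array 1 the row lost its call, at -0.53 and -0.52 (limma adjusted p from 0.0531 to 0.0547). The row also lost its call when only the lung and parental arrays were fitted (limma adjusted p = 0.0609). For lung over liver it changed by -0.39 (adjusted p = 0.0705), and by -0.51 without lung array 2 (adjusted p = 0.048).

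Row 7955850 of HOXC13 was higher in lung than in liver derivatives. It had 10.98, 10.82 and 10.97 in the lung arrays and 9.96, 9.77 and 9.70 in the liver arrays, against 9.77, 9.91, 10.15 and 11.06 in the parental arrays. Parental array 4 was the highest of all 10 arrays. The row was 2.16-fold higher in lung than in liver derivatives (1.11, SE 0.29, limma adjusted p = 0.039), and -0.01 with a term for array set. Without any 1 of 8 arrays, all but parental arrays 1 and 4, the call was lost (adjusted p from 0.0518 to 0.113). Against parental cells it changed by 0.70 in lung derivatives (adjusted p = 0.11), by 0.98 without parental array 4 (adjusted p = 0.00169) and by -0.14 against that array alone.

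**Figure D3:**
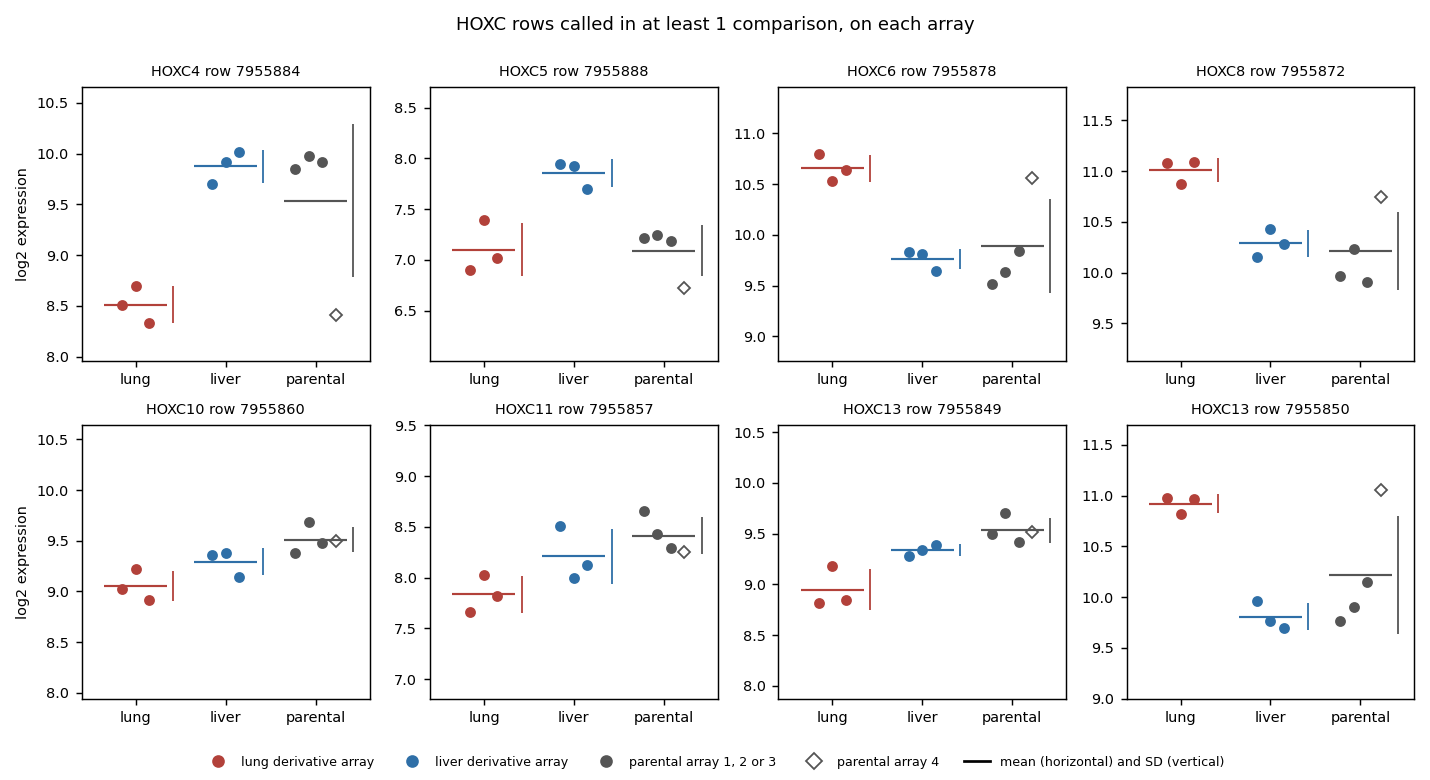
Log2 expression of the 8 HOXC rows called in at least 1 comparison, on each array, for lung derivatives, liver derivatives and parental cells. Points are arrays, the open diamond is parental array 4, horizontal lines are group means and vertical lines are SDs. In the HOXC4, HOXC6, HOXC8 and HOXC13 rows 7955884, 7955878, 7955872 and 7955850 the diamond lies with or near the lung arrays, and in rows 7955860, 7955857 and 7955849 it lies with the other parental arrays.

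Of the 8 called rows, 7 fell into 2 patterns over the parental arrays. In HOXC4 row 7955884, HOXC6 row 7955878, HOXC8 row 7955872 and HOXC13 row 7955850, parental array 4 was at 8.41, 10.56, 10.75 and 11.06, while the means of parental arrays 1 to 3 were 9.91, 9.67, 10.04 and 9.94. In HOXC10 row 7955860, HOXC11 row 7955857 and HOXC13 row 7955849, parental array 4 was at 9.49, 8.25 and 9.51 and the means of the other 3 were 9.52, 8.46 and 9.54. The changes against parental array 4 alone were -0.44, -0.42 and -0.57 in these 3 rows, none of them called, with 1 array on the parental side. In the other row, HOXC5 row 7955888, parental array 4, at 6.72, lay below all other arrays. The rows were chosen by their calls. Those of the first pattern were called for lung over liver, HOXC8 row 7955872 also for lung over parental. Those of the second were called for lung over parental alone. That call depends on where parental array 4 lies, so the patterns may partly follow from the choice of rows.

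Across the 10 arrays the genes did not all vary together. Described by Pearson's r over the means of their rows, with all genes from the same arrays, HOXC4 went with HOXC5 at 0.62 and against HOXC6 at -0.83. HOXC6 and HOXC8 had an r of 0.65 and HOXC10 and HOXC13 of 0.87. HOXC5 and HOXC12 had an r of 0.72 and HOXC9 and HOXC12 of -0.74. Of 3927 other genes with at least 4 rows, the most like HOXC4 was SFPQ (r = 0.98), the most like HOXC5 was PSEN2 (0.97) and the most like HOXC6 was ENTPD1 (0.96). For HOXC8, HOXC9 and HOXC10 these were SEC61A2 (0.96), SEC22B (0.87) and SH3PXD2A (0.96), and for HOXC11, HOXC12 and HOXC13 they were SPX (0.94), BCL2L14 (0.91) and SOX13 (0.95). All values of r are over 10 arrays, in which parental array 4 and the group levels are shared by all genes.

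Genes that act with or on HOX clusters were read from lists, by the mean of their rows. Of 10 TALE cofactor genes 2 were measured, PKNOX2, a homeodomain partner of PBX and HOX proteins, and PBXIP1, a PBX-binding protein, and limma called neither in any comparison, also at an unadjusted p under 0.05 (0). Of the Polycomb list 9 of 21 were measured. In liver derivatives PCGF5, a ring finger subunit of Polycomb repressive complex, fell by 0.57 on the log2 scale (SE 0.06, limma adjusted p = 0.000183). It was the 1 called member, beside 3.5% of all genes called lower. In lung derivatives 3 fell, PCGF5 (-0.34, SE 0.06), the ring finger protein BMI1 (-0.34, SE 0.08) and PHC2 (-0.27, SE 0.07), and 0 were higher. The list median was -0.13 for lung over parental, against -0.01 for all genes, of which 17.3% were called lower.

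Of the Trithorax list 5 of 14 genes were measured, and 4 fell in lung derivatives, beside 17.3% of all genes called lower. These were SETD1B (-0.39, SE 0.07, limma adjusted p = 0.00236), ASH1L (-0.35, SE 0.08), the histone methyltransferase KMT2A, which maintains HOX expression (-0.26, SE 0.06), and RBBP5 (-0.27, SE 0.09). In liver derivatives limma called 0 of the 5, with 1 at an unadjusted p under 0.05, and with a term for array set it called SETD1B (-0.23, adjusted p = 0.0499). For lung over parental with a term for array set, limma called 0 of the Polycomb and 0 of the Trithorax genes (3 and 3 at an unadjusted p under 0.05), and the changes of SETD1B, ASH1L, KMT2A and RBBP5 were -0.32, -0.27, -0.25 and -0.03. The medians of the Polycomb and Trithorax lists in that fit were -0.13 and -0.25. Over all genes 5.75% were called in that fit.

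Of 34 other homeobox genes measured, 1 was called in liver derivatives and 5 in lung derivatives, beside 7.83% and 30.1% of all genes. ZEB1, a repressor of epithelial genes, fell in liver derivatives (-0.59, SE 0.10) and in lung derivatives (-0.66, SE 0.10), and by 0.86 against parental array 4 alone (limma adjusted p = 0.00387). In lung derivatives POU2F1 (-0.48, SE 0.07) and VENTX (-0.24, SE 0.07) also fell and LHX9 (0.39, SE 0.07) and ALX1 (0.41, SE 0.10) rose. Against parental array 4 alone POU2F1 was still called (-0.34, limma adjusted p = 0.0272), and VENTX (-0.26, adjusted p = 0.132), LHX9 (0.24, adjusted p = 0.0975) and ALX1 (0.29, adjusted p = 0.27) were not. HMX2 was not called in lung derivatives (0.18, limma adjusted p = 0.275) and changed by 0.53 against parental array 4 alone. The list median was 0.04 for liver over parental and 0.03 for lung over parental.

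Among 12 measured genes that flank the cluster on chromosome 12, 2 rose in liver derivatives, beside 4.33% of all genes called higher. NFE2, an erythroid transcription factor, rose by 0.88 (SE 0.18, limma adjusted p = 0.0107; 9.76 ± 0.07 against 8.89 ± 0.39, SD, n = 3 and 4), and by 0.68 against parental arrays 1 to 3. ZNF385A rose by 0.44 (SE 0.11, adjusted p = 0.0329). In lung derivatives 2 rose and 1 fell, beside 12.9% of all genes called higher and 17.3% lower. HNRNPA1, an RNA-binding splicing factor, fell (-0.41, SE 0.07, adjusted p = 0.00325), and GPR84 (0.39, SE 0.11) and GTSF1 (0.20, SE 0.06) rose. None of the 3 was called against parental array 4 alone, where HNRNPA1 changed by -0.22, GPR84 by 0.41 and GTSF1 by 0.19 (limma adjusted p = 0.117, 0.195 and 0.224). For lung over liver limma called 3 of the 12 lower and 1 higher, beside 11.9% and 8.02% of all genes. NFE2 (-0.98), HNRNPA1 (-0.42) and CBX5 (-0.19) were lower and GPR84 (0.50) was higher. With a term for array set these values were -0.19, -0.17, -0.08 and 0.54. The list medians were 0.04 for liver over parental and 0.03 for lung over parental, against 0.01 and -0.01 over all genes.

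Markers of other cell types were read beside these values, since fibroblasts keep HOX expression of their site of origin. Any host cells carried over from the nude mice would be mouse cells. Whether rows annotated to human genes detect such cells was not tested. Of 10 stromal genes LUM fell in liver derivatives (-1.97, SE 0.20), and in lung derivatives PDPN (0.35), C1R (0.28) and DCN (0.26) rose and TAGLN (-0.36) and LUM (-0.62) fell, of which limma called LUM with a term for array set. Beside these stromal calls, 3.5% of all genes were called lower in liver derivatives. In lung derivatives 12.9% of all genes were called higher and 17.3% lower. The mean level of the stromal list was 7.26 to 7.41 in lung arrays, 7.11 to 7.15 in liver arrays and 7.22 to 7.40 log2 units in parental arrays. Of 12 leukocyte genes 3 rose in liver derivatives and 6 in lung derivatives (3 and 4 with a term for array set), beside 4.33% and 12.9% of all genes called higher, CD5 by 1.70 in each, and the list mean was 6.75 to 6.86 in lung arrays and 6.62 to 6.68 in liver arrays, against 6.27 to 6.37 in parental arrays. PTPRC, which defines leukocytes, was at 5.23 ± 0.03 in lung derivatives, 5.06 ± 0.08 in liver derivatives and 5.04 ± 0.07 in parental cells (SD, n = 3, 3 and 4), a change of 0.19 in lung derivatives (limma adjusted p = 0.0395, or 0.175 with a term for array set).

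Of 10 hepatocyte and 6 lung epithelial genes limma called 0 and 0 in liver derivatives (1 and 1 at an unadjusted p under 0.05) and 1 and 3, all higher, in lung derivatives, and of 5 endothelial genes 0 (0 at an unadjusted p under 0.05) and 1. Those called in lung derivatives were CPN1 (0.41), SFTPA1 (0.39), SFTPA2 (0.45), PDPN (0.35), which is also on the stromal list, and SELE (0.29). Over all genes 4.33% were called higher in liver and 12.9% in lung derivatives. The lung counts of these 3 lists by limma were 0, 0 and 0 with a term for array set (2, 2 and 0 at an unadjusted p under 0.05), and their medians were 0.09, 0.09 and 0.03. Log2 array values have no zero, and the part of these markers in the HOXC results was not tested. Of 10 colon epithelial genes ELF3, LGR5, TSPAN8 and EPHB2 were lower in both derivatives, beside 17.3% of all genes called lower in lung and 3.5% in liver derivatives. Against parental array 4 alone ELF3 and LGR5 were called in lung derivatives, and TSPAN8 and EPHB2 were not (limma adjusted p = 0.0831 and 0.0514). The list mean was 8.88 to 8.96 in lung arrays and 8.85 to 8.93 in liver arrays, against 9.15 to 9.19 in parental arrays.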

How the data were processed

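Biotin-labelled total RNA was measured on a chip that the labels call HG1.0ST, made by Affymetrix. The deposited table holds log2 values, for which RMA and oligo are named in the submitters' processing notes; versions, summary level and genome build are not given in the sources used here. RMA puts arrays on a common distribution, so a change in total RNA cannot be seen. The table has 65535 rows, which may not be all of the array, and the genes lie almost all on chromosomes 1, 10, 11 and 12.

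Each row was fitted with limma 3.58.1 (R 4.3.3), 1 coefficient per group over all 10 arrays, and tested two-sided with eBayes; p-values were adjusted by Benjamini-Hochberg over 56949 rows, or over 4713 genes for the mean of a gene's single-symbol rows. The fit was tested on simulated data. Old symbols were updated through RefSeq synonyms; all 9 members matched. HOX genes are alike in the homeobox, so rows may share signal with paralogs. Members and lists were chosen with earlier results of these data known, as was the array set. Values per array were printed for rows called in any comparison, up to 4 per gene, and for the mean of rows of every gene. From each list up to 4 called genes were named. KRT8, KRT18 and PTPRC were named as cell type checks. HOXC6 rows 7955879 and 7955880, the uncalled companion rows, VENTX, HMX2 and DCN were chosen after their values were seen.

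Alternatives were other normalizations, a filter on dim rows, other models and leaving out each array.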

Additional observations from a re-analysis of the deposited data

Results flagged for a closer look

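The parental arrays were checked for the means of the 9 genes, the called rows and the 2 rows that list several HOXC symbols. In the 4 parental arrays the gap between the farthest array and the nearest other, as a share of the whole range, was above Dixon's critical value in 5 cases. It was 0.916 for the mean of the HOXC4 rows, 0.927 for the mean of the HOXC6 rows, 0.92 for HOXC4 row 7955884 and 0.896 for HOXC5 row 7955888, with parental array 4 the far one in each. It was 0.838 for the mean of the HOXC11 rows, with parental array 1 the far one. Chance alone marks about 1 in 20 groups, and 8.25% of the 54806 rows with a single symbol exceeded the value. That share is of rows and not of means of rows, and HOXC4 row 7955884 is part of the HOXC4 mean.

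The changes of lung and liver derivatives against parental cells, which share the parental arrays, differed by the direct test of lung over liver in HOXC4 (-0.817 log2 units) and in HOXC5 (-0.572). With the array set as a term these were 0.14 and -0.37, and neither was called.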

How the results depend on the processing

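Counts of HOXC calls moved with the settings. The replicate block is a fit with a term for each replicate number. Only parental array 4 has number 4, so that fit gives this array no part in the comparisons. Its log2 changes are those without parental array 4. For liver over parental 0 rows were called, and 1 after median centring, without dim rows or with the array set as a term; of genes 1 was called, 2 by the median of rows and 0 by the brightest row. For lung over parental 4 rows were called, 7 without dim rows, 8 with an intensity trend and robust prior, 9 with the replicate block, and 0 with the array set or with only the 2 groups compared; of genes 2 were called, 4 with the replicate block, 1 by the median of rows or with only the 2 groups, and 0 with the array set. For lung over liver 5 rows were called, 8 with the replicate block and 0 with the array set; of genes 2 were called, both lower, 3 by the brightest row (2 higher and 1 lower), 1 by the median of rows and 0 with the array set. Leaving out 1 array gave 0 to 1, 0 to 13 and 0 to 9 rows and 0 to 1, 0 to 4 and 0 to 2 genes in the 3 comparisons. Arrays of the same replicate number did not deviate together (r from -0.12 to 0.04), so the numbers were not taken to pair them.

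Directions turned as follows, in log2 units; the cause was not tested. With the array set, lung over parental was 0.15 for HOXC4, 0.14 for HOXC5, -0.015 for HOXC6, 0.10 for row 7955884 and -0.14 for row 7955850. Lung over liver was 0.14 for HOXC4, -0.20 for HOXC6, -0.0013 for HOXC8, -0.0164 for HOXC9, -0.054 for HOXC10, 0.0744 for HOXC12, -0.12 for HOXC13, 0.14 for row 7955884 and -0.0058 for row 7955850. Liver over parental was -0.0379 for row 7955884 and 0.10 for row 7955878, as with the replicate block, which also gave lung over parental of -0.0071 for HOXC12 and -0.11 for row 7955888. HOXC5 in lung over parental was 0.0022 after quantile normalization and 0.0357 after median centring. The median of rows gave -0.0169 for HOXC6 in liver over parental, and -0.21, -0.0685 and -0.30 for HOXC8, HOXC10 and HOXC13 in lung over liver. HOXC9 in lung over liver was -0.0371 without dim rows or by the brightest row, which also gave 0.00091 and 0.0548 for HOXC10 in liver and lung over parental and 0.70 for HOXC13 in lung over parental. With 1 array left out, ranges that crossed 0 were -0.15 to 0.0923 (HOXC5), -0.0304 to 0.11 (HOXC12) and -0.14 to 0.11 (row 7955888) for lung over parental. For liver over parental they were -0.17 to 0.0188 (HOXC11), -0.0379 to 0.48 (row 7955884), -0.25 to 0.10 (row 7955878) and -0.0271 to 0.25 (row 7955872), and for lung over liver -0.0072 to 0.0937 (HOXC13).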
